A study of Mus musculus with 10 samples.

Results

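Keratins are the intermediate filament proteins of epithelial cells, and 10 of their genes were followed here: Krt8, Krt18, Krt19 and Krt7 of simple epithelium, Krt5, Krt14 and Krt15 of the basal layer, Krt17 and Krt6a, which mark periderm and epithelial appendages, and Krt10 of differentiating suprabasal cells. The members were taken by gene symbol from the 55401 gene rows of the deposited table, and all 10 were found. The table holds RNA sequencing counts of peeled forelimb bud ectoderm from mouse embryos at E9.75, a stage in embryonic days. It has 3 libraries of embryos with the labelled genotype SP8&SP6_DOUBLE_KO, a double knockout of the zinc finger factor genes Sp8 and Sp6 (DKO), and 3 of WT littermates. The labels do not say which alleles were used, whether the loss was limited to some tissue, or which embryos shared a litter, and each replicate took the ectoderm of about 2 forelimb buds. The labels' 2 SP6KO and 2 WT samples at E10.5 were not analysed here. The libraries carry the column numbers DKO 17, DKO 40, DKO 41, WT 32, WT 53 and WT 56.

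Keratins come as acidic type I and basic type II proteins, and a filament needs a partner of each type. Krt8 with Krt18 is the first such pair made in the embryo and stays in simple epithelia, where Krt19 can take the place of Krt18 and Krt7 that of Krt8. When a surface epithelium stratifies, its basal cells make Krt5 with Krt14 and Krt15, and cells that leave the basal layer later turn on Krt10. At the stage sampled the limb ectoderm is a thin sheet with a developing outer periderm, and its distal rim is forming the apical ectodermal ridge. Of the members, 6 encode type I proteins (Krt18, Krt19, Krt14, Krt15, Krt17 and Krt10) and 4 encode type II proteins (Krt8, Krt7, Krt5 and Krt6a).

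The upstream sequences of the basal gene Krt5 and of the simple-epithelium partners Krt8 and Krt18 are shown because these genes lie in 1 gene cluster on chromosome 15 and their values are compared as a basal keratin and a filament pair. They are RefSeq sequences of GRCm38.p6, written 5′ to 3′ on the strand of the gene, and they end where the first annotated exon of either RefSeq or GENCODE M21 begins. Krt5 covers chr15:101712906-101713155 on the minus strand, Krt8 covers chr15:102004483-102004592 on the minus strand, and Krt18 covers chr15:102027966-102028179 on the plus strand. Capitals mark matches, on either strand, to 4 sets of letters. The first is the TATA box with the letters TATAAA. The GC box, the classic SP factor sequence, has the letters GGGCGG. The CACC box, also bound by SP and KLF factors, has the letters CCACCC. The AP-2 site has the letters GCCNNNGGC.
Krt5: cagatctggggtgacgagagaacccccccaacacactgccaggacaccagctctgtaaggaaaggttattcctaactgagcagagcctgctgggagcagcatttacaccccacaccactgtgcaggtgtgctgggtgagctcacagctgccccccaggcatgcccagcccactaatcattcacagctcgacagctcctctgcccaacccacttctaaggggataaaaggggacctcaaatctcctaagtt
Krt8: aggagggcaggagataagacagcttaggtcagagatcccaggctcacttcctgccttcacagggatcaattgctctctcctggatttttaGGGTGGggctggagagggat
Krt18: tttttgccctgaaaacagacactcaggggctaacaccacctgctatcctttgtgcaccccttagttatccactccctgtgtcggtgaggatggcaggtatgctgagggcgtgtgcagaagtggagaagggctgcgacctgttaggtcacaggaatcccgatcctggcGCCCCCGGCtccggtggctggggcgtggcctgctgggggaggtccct
In the 250 bases before the RefSeq start, Krt5 held 0 matches of any of the 4, Krt8 held 2 CACC boxes, of which 1 lies in the stretch shown, and Krt18 held 1 AP-2 match. Krt10 held 1 TATA box and 1 CACC box, and Krt14 held 1 CACC box. Krt7 held 4 GC boxes and 2 AP-2 matches, 1 of which overlaps a GC box. Among 32851 such windows, 32.7% held a GC box, 28.1% a CACC box, 13.7% an AP-2 match and 12.4% a TATA box. An upstream sequence was matched for 6 of the 10 members. The RefSeq start of Krt14 lies 1518 bases inside its GENCODE gene and that of Krt7 1360 bases inside, so neither is shown, and Krt15, Krt17, Krt19 and Krt6a are named only.

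The library totals ranged from 64432348 to 87040786 counts. As a check of the labels, Sp8 was at 36.2 ± 6.22 CPM (counts scaled to a common library size by TMM, mean ± SD, n = 3) in WT, while DKO held 3.68 ± 1.90 CPM (log2 fold change -3.29, SE 0.30, edgeR adjusted p = 0.000806). Sp6 was at 287 ± 50.7 CPM and 74.7 ± 59.7 CPM, each DKO library being below each WT library, with an edgeR adjusted p of 0.207. In DKO 17, DKO 40 and DKO 41 it was at 133, 13.9 and 76.9 CPM, so the library labelled DKO 17 kept the most Sp6 reads, and the deleted part of the gene is not given. Epithelial origin was visible in all 6 libraries. The summed level of 9 markers of embryonic epithelium was 3194 to 3735 CPM in WT and 2059 to 2921 CPM in DKO. Of the 9, 3 (Epcam, Cdh1 and Perp) were called lower, against 2.81% of all tested genes. Each of these calls was lost in 4 or 5 of the 6 fits with 1 library left out.

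Of the 10 keratins, all of which passed the filter on low counts, 2 rose in DKO (Krt8 and Krt19), 1 fell (Krt17) and 7 were not called (edgeR quasi-likelihood test, Benjamini-Hochberg adjusted p under 0.05 over 19126 genes). Over all tested genes 4.51% were called, 1.7% higher and 2.81% lower. The libraries of the groups did not overlap for 5 of the 10, with DKO above WT for Krt8 and Krt19 and below WT for Krt7, Krt5 and Krt17. Over all tested genes that was the case for 21.9%. In log2 fold change (DKO minus WT), the median over the 10 keratins was -0.08, against 0.03 over all tested genes. The number of keratins called moved with the setting, as did the share of all tested genes. Under DESeq2 size factors, upper-quartile scaling or library totals it stayed at 3, with 4.46%, 4.59% and 4.2% of all genes called. DESeq2 called 5 of the 10 (8.3% of all genes), limma-voom 4 (3.34%), edgeR with legacy=TRUE 2 (2.85%) and edgeR with no filter 1 (1.38%). Leaving out DKO 41 gave 4 (4.61%), DKO 17 gave 2 (3.73%), WT 53 gave 2 (2.65%), and DKO 40, WT 32 or WT 56 gave 1 (1.48%, 1.57% and 1.23%). Without both WT 32 and DKO 41, 2 were called (1.97%). Bulk RNA of a peeled sheet cannot tell fewer cells of a type from less RNA per cell.

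**Figure D1:**
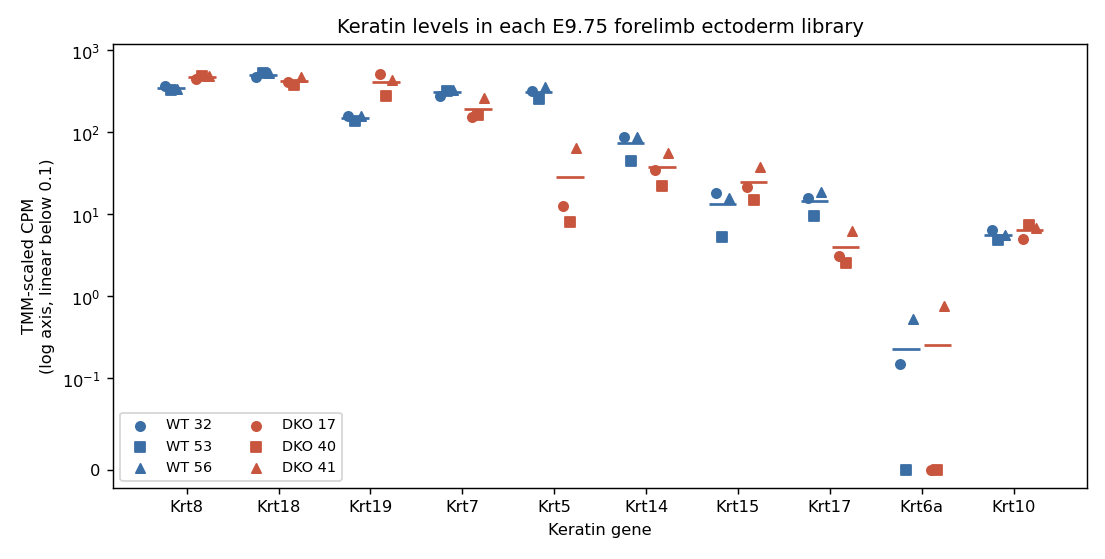
TMM-scaled CPM of the 10 keratins (log axis, linear below 0.1) in each WT library (blue) and each DKO library (red), with group means as lines. Krt19 lies between 138 and 160 CPM in WT and between 280 and 511 CPM in DKO, while Krt5 lies between 254 and 363 CPM in WT and between 8.09 and 65.0 CPM in DKO.

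Among the simple-epithelium keratins, Krt19 changed most. Krt19 is the smallest keratin and lacks the tail domain of its relatives (ENSMUSG00000020911.14, GRCm38 chromosome 11, 100140810 to 100148665). It was at 157, 138 and 160 CPM in WT 32, WT 53 and WT 56 and at 511, 280 and 435 CPM in DKO 17, DKO 40 and DKO 41. The WT libraries lay close together, and the lowest DKO library was still above all of them. Krt19 rose 2.70-fold, from 151 ± 11.8 to 409 ± 117 CPM (SD, n = 3 each), with a log2 fold change of 1.43 (SE 0.20, edgeR adjusted p = 0.00596). It was called with any single library left out, with log2 fold changes from 1.24 to 1.64, and by each other tool and scaling tried. Without both WT 32 and DKO 41 its log2 fold change was 1.38 and the edgeR adjusted p was 0.0665.

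Krt8, the type II keratin of the first embryonic epithelia (ENSMUSG00000049382.10, chromosome 15, 101996698 to 102004482), was at 366, 331 and 337 CPM in WT and at 448, 493 and 494 CPM in DKO 17, DKO 40 and DKO 41. Both groups were tight and did not overlap. Krt8 rose 1.39-fold, from 345 ± 18.6 to 478 ± 26.4 CPM (log2 fold change 0.47, SE 0.10, edgeR adjusted p = 0.0315). The size of this rise moved little with 1 library fewer (0.44 to 0.52 on the log2 scale), but the call was kept only without DKO 17, and the edgeR adjusted p was between 0.0503 and 0.163 without DKO 40, DKO 41 or any 1 WT library. With no filter the edgeR adjusted p was 0.0529, and without both WT 32 and DKO 41 it was 0.12.

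Krt18, the type I partner of Krt8 (ENSMUSG00000023043.7, chromosome 15, 102028180 to 102032027), was at 471, 527 and 528 CPM in WT and at 413, 382 and 472 CPM in DKO. The groups met at WT 32 and DKO 41. The log2 fold change of Krt18 came to -0.27 (SE 0.11), with an edgeR adjusted p of 0.253, so the pair that shares a filament did not share a call. Krt7, a type II keratin of simple and ductal epithelia (ENSMUSG00000023039.17, chromosome 15, 101411043 to 101430313), was at 282, 325 and 330 CPM in WT and at 155, 161 and 260 CPM in DKO 17, DKO 40 and DKO 41. Every DKO library was below every WT library, with DKO 41 nearest to WT. Krt7 had a log2 fold change of -0.70 (SE 0.19) and an edgeR adjusted p of 0.0844. Leaving out DKO 41 took it to -0.99 with an edgeR adjusted p of 0.00659, and DESeq2 on all 6 libraries gave an adjusted p of 0.0231. Without any other 1 library it was not called (edgeR adjusted p from 0.157 to 0.303), nor with legacy=TRUE (0.138) or limma-voom (0.0827).

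In the basal layer genes the widest difference was that of Krt5 (ENSMUSG00000061527.7, chromosome 15, 101707070 to 101712898), the type II keratin that marks basal cells. Krt5 was at 320, 254 and 363 CPM in WT 32, WT 53 and WT 56. It was at 12.7 CPM in DKO 17, 8.09 CPM in DKO 40 and 65.0 CPM in DKO 41. No DKO library came near the WT range, but DKO 41 held several times the level of the other DKO libraries. The group means were 312 ± 54.8 and 28.6 ± 31.6 CPM, a ratio of 10.9. The log2 fold change of -3.43 (SE 0.75) was not called, with an edgeR adjusted p of 0.0635. Leaving out DKO 41 moved it to -4.91 with an edgeR adjusted p of 0.000576, and with all 6 libraries it passed under limma-voom (adjusted p = 0.014) and DESeq2 (adjusted p = 0.00536). Without any other 1 library edgeR did not call it (adjusted p from 0.0608 to 0.199).

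Krt14, the usual type I partner of Krt5 (ENSMUSG00000045545.8, chromosome 11, 100203162 to 100207548), was at 88.8, 44.7 and 87.8 CPM in WT and at 34.9, 22.5 and 56.2 CPM in DKO 17, DKO 40 and DKO 41. DKO 41 was above WT 53, so the groups overlapped. Krt14 differed by a log2 fold change of -0.96 (SE 0.34), with an edgeR adjusted p of 0.172. Krt15, a further type I keratin of basal cells (ENSMUSG00000054146.8, chromosome 11, 100131758 to 100135928), was at 18.5, 5.37 and 15.8 CPM in WT and at 21.7, 14.8 and 37.5 CPM in DKO. WT 53 was the lowest WT library for both genes and DKO 41 the highest DKO library for both. Krt15 had a log2 fold change of 0.87 (SE 0.43) and an edgeR adjusted p of 0.334, opposite in sign to Krt14 and not called.

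Krt17, a keratin of periderm, hair germs and nails (ENSMUSG00000035557.9, chromosome 11, 100256217 to 100261029), was at 15.8, 9.54 and 19.0 CPM in WT and at 3.11, 2.54 and 6.29 CPM in DKO. The groups did not overlap. Krt17 fell 3.71-fold, from 14.8 ± 4.80 to 3.98 ± 2.02 CPM (log2 fold change -1.89, SE 0.37, edgeR adjusted p = 0.0246). The call was kept without DKO 41 or WT 53 and lost without DKO 17, DKO 40, WT 32 or WT 56 (edgeR adjusted p from 0.067 to 0.12). It was also lost with no filter (0.0736), with legacy=TRUE (0.0611) and without both WT 32 and DKO 41 (0.0583), each an edgeR adjusted p. Krt6a, its type II partner in periderm and wounds (ENSMUSG00000058354.7, chromosome 15, 101689910 to 101694307), was close to the limit of detection. Its counts were 13, 0 and 47 in WT and 0, 0 and 68 in DKO, the last of these in DKO 41. The reads of each group came mostly or wholly from 1 library, so no fold is given. With all libraries its edgeR adjusted p was 0.977.

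Krt10, which marks cells that have left the basal layer (ENSMUSG00000019761.10, chromosome 11, 99385254 to 99389364), was at 4.88 to 6.43 CPM in WT and at 5.05 to 7.46 CPM in DKO. The ranges overlapped, with a log2 fold change of 0.19 (SE 0.25) and an edgeR adjusted p of 0.769. Its type II partner Krt1 averaged 2.00 ± 0.709 CPM in WT against 1.11 ± 0.421 in DKO (edgeR adjusted p = 0.336).

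**Figure D2:**
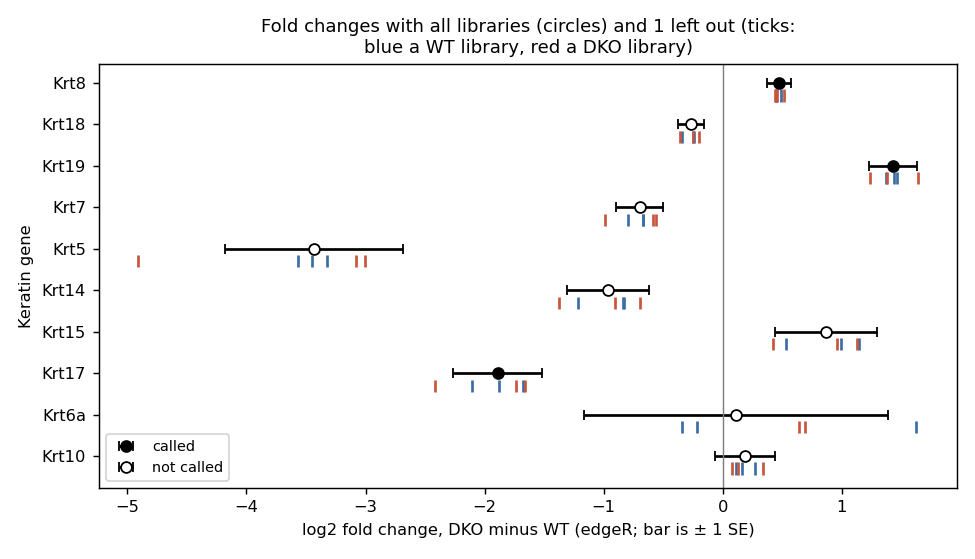
Log2 fold changes of the 10 keratins (DKO minus WT, edgeR, bar ± 1 SE), filled where called, with ticks for the fit without each WT library (blue) or DKO library (red). The tick of Krt6a without DKO 41, where DKO has 0 counts, is not drawn. The ticks of Krt19 span 1.24 to 1.64 and those of Krt5 span -4.91 to -3.00.

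Several members share sequence with other genes, so a short read from the shared part cannot be given to 1 gene. Words of 50 bases in the annotated transcripts were compared. Krt6a shared 57.2% of its words with other genes, mostly Krt6b (40.2%), and Krt5 shared 12.2%. Krt14 shared 13.9%, mostly with Krt16 (11%), which had a total of 1 count over the 6 libraries, in WT 32. Krt8 shared 29.7%, mostly with its processed pseudogene Krt8-ps on chromosome 7 (26.9%), and Krt19 shared 0. Krt8-ps averaged 2.02 ± 0.21 CPM in WT against 2.91 ± 0.606 in DKO, without overlap and not called (edgeR adjusted p = 0.432). The library chemistry does not mark strand. Exons of Krt10, Krt7, Krt8, Krt5 and Krt6a overlap those of genes on the opposite strand by 146, 77, 101, 129 and up to 471 bases, and such reads cannot be told apart.

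Levels of different keratins were compared as CPM per kilobase of exon. In WT the order was Krt18 (354 ± 22.8 CPM per kilobase), Krt8 (176 ± 9.5), Krt5 (142 ± 25.0), Krt19 (81.7 ± 6.34), Krt7 (44.3 ± 3.70) and Krt14 (42.0 ± 14.3), with the other 4 below 10. Neighbours in this order did not overlap down to Krt7, which overlapped Krt14. In DKO, Krt18 (294 ± 31.8 CPM per kilobase) and Krt8 (244 ± 13.5) still led, and Krt19 (220 ± 63.3) followed, overlapping Krt8. Krt5 moved from the third place to the seventh (13.0 ± 14.4 CPM per kilobase), where its libraries overlapped those of Krt15.

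The summed level of all 10 was 860 ± 51.3 CPM per kilobase in WT and 840 ± 111 in DKO, and the groups overlapped. Within this sum the make-up differed. Krt5, Krt14 and Krt15 together made up 24.1%, 17.8% and 24.6% of it in WT 32, WT 53 and WT 56. In DKO 17, DKO 40 and DKO 41 they made up 4.43%, 3.44% and 8.78%, so that no DKO library reached the WT range. Krt19 alone was 9.20% to 9.84% of the sum in WT and 20.9% to 32.2% in DKO. Krt18 was 38.1% to 45.3% in WT and 33.6% to 36.9% in DKO.

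**Figure D3:**
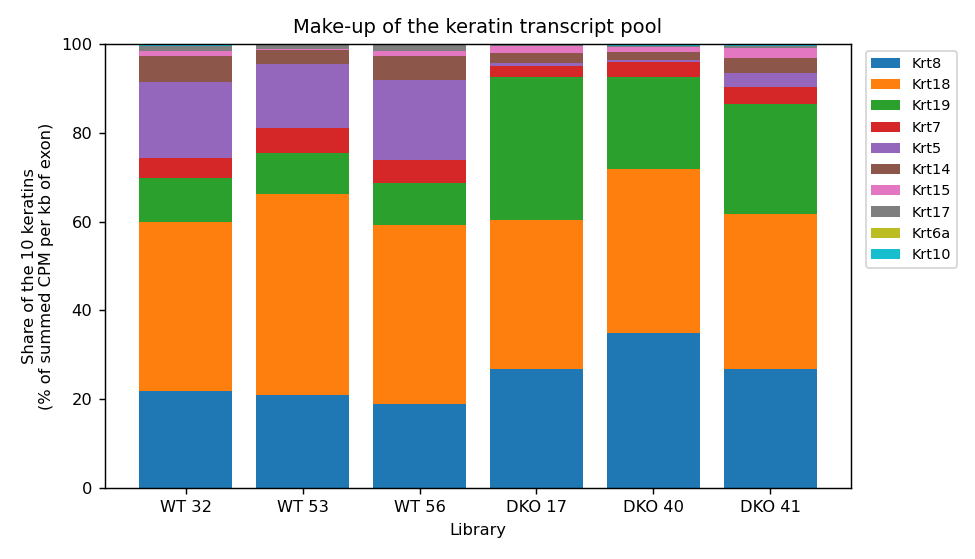
Share of each keratin in the summed CPM per kilobase of the 10, as stacked bars for each library. Krt5 takes 14.3% to 18.1% of the bar in WT and 0.51% to 3.14% in DKO, and Krt19 takes the larger share in each DKO library.

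Ratios within a library do not depend on its scaling, and several separated the groups. They are given without a test. Krt5 per Krt14 was 2.88, 4.54 and 3.31 in WT and 0.29, 0.288 and 0.924 in DKO. Per kilobase, Krt5 was thus the more abundant transcript of this pair in every WT library and the less abundant in every DKO library. In DKO 41 that order rests on the division by length, as Krt5 was at 65.0 CPM and Krt14 at 56.2 CPM there. Without DKO 41 the DKO mean of this ratio was 0.289 in place of 0.501.

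The ratio of the type I basal keratins Krt15 and Krt14 was tighter within groups than either gene. Krt15 per Krt14 was 0.207, 0.119 and 0.179 in WT and 0.618, 0.656 and 0.663 in DKO. The DKO libraries lay within a narrow range although Krt14 itself ran from 22.5 to 56.2 CPM in them. In the simple pair, Krt8 per Krt18 was 0.461 to 0.57 in WT and 0.768 to 0.946 in DKO, and Krt19 per Krt18 was 0.203 to 0.258 in WT and 0.568 to 0.958 in DKO. Krt8 per summed Krt18 and Krt19 was 0.38 to 0.453 in WT and 0.407 to 0.604 in DKO, where the groups overlapped.

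The type II sum (Krt8, Krt7, Krt5 and Krt6a) was 363 ± 28.1 CPM per kilobase in WT and 285 ± 31.8 in DKO, with no overlap. The type I sum was 497 ± 26.2 in WT and 556 ± 97.7 in DKO, and the groups overlapped. The ratio of type I to type II was 1.31 to 1.45 in WT and 1.59 to 2.34 in DKO.

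**Figure D4:**
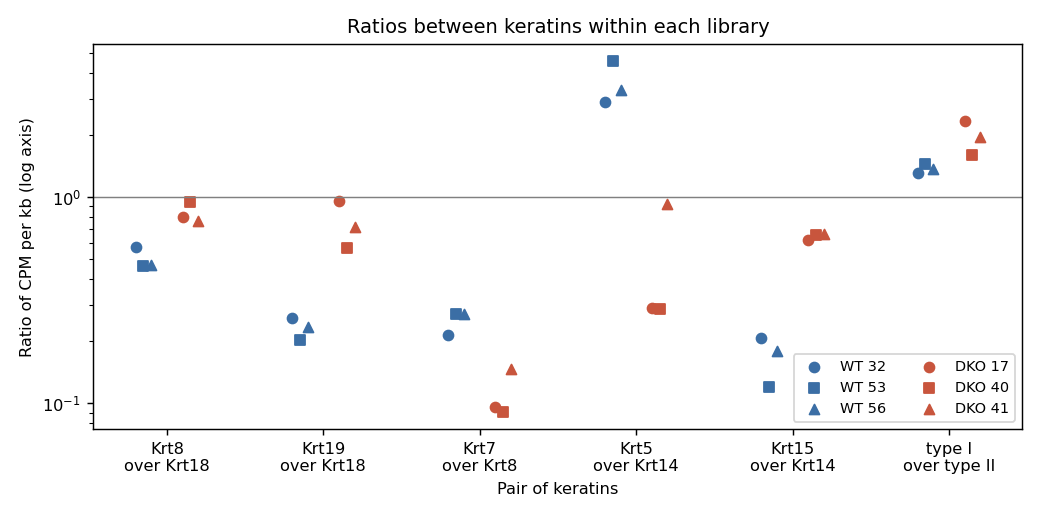
Ratios of CPM per kilobase (log axis) between keratins within each WT library (blue) and DKO library (red). Krt5 per Krt14 lies above 1 in the 3 WT libraries and below 1 in the 3 DKO libraries, and Krt15 per Krt14 lies between 0.119 and 0.207 in WT and between 0.618 and 0.663 in DKO.

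The keratin genes sit in gene clusters. Chromosome 11 holds 27 annotated type I genes within 1037 kilobases, 5 of the members among them being Krt10, Krt15, Krt19, Krt14 and Krt17. Chromosome 15 holds 26 genes within 685 kilobases, the type II genes and Krt18. Members with different signs of the fold change were near neighbours. Between the outer ends of Krt15 and Krt17 lie 129 kilobases and 6 keratin genes, in the order Krt15, Krt19, Krt9, Krt14, Krt16 and Krt17. Of these the first pair had positive log2 fold changes, and Krt14 and Krt17 negative ones. Only Krt19 and Krt17 of the 6 were called, and the groups of Krt15 and of Krt14 overlapped. Krt8 and Krt18 lie 23697 bases apart on opposite strands.

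Of the 43 other keratin genes, 17 had 0 counts in the 6 libraries and 13 passed the filter. Of these 13, edgeR called 2 lower and 0 higher (2.81% and 1.7% over all tested genes). At an unadjusted p under 0.05 there were also 0 higher. The share of all genes at that threshold was not computed, here or for the lists below. Over all genes, DESeq2 called 754 higher and 984 lower of 20940, and limma-voom 205 higher and 434 lower of 19126. Of the 13 keratins, DESeq2 and limma-voom called 0 higher. DESeq2 called 4 lower, namely Krt39, Krt79, Krt80 and Krt82, of which Krt79 and Krt82 lie outside the naming rule. Krt42, a type I gene 1852 bases from Krt17, averaged 2.33 ± 0.793 CPM in WT against 0.343 ± 0.423 in DKO (log2 fold change -2.77, SE 0.66, edgeR adjusted p = 0.0491). Its call was lost with any 1 library left out but DKO 17, without which the log2 fold change was -4.37, and DESeq2 did not call it (adjusted p = 0.113). Krt39, a hair-type keratin, was at 0.664 ± 0.376 and 0.055 ± 0.0607 CPM (edgeR adjusted p = 0.0491), and its call was lost without any 1 of the 6. Over the 13 genes the log2 fold changes had a median of -0.87, against 0.03 over all tested genes.

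A further 5 other keratins reached 1 CPM in a group, and edgeR called none of them. Krt23, found in simple and glandular epithelia, was at 7.03 to 17.4 CPM in WT and at 56.5, 2.12 and 11.4 CPM in DKO 17, DKO 40 and DKO 41. Krt20, known from gut lining and urothelium, ranged from 1.63 to 3.41 CPM in WT and from 0.235 to 5.13 in DKO. DKO 40 was the lowest library for both. Krt80 averaged 2.00 ± 0.227 CPM in WT against 0.771 ± 0.192 in DKO, without overlap (edgeR adjusted p = 0.0793, DESeq2 adjusted p = 0.013). Krt90 was at 4.01 ± 3.19 and 2.16 ± 0.85 CPM, and the values of Krt1 are given above.

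**Figure D5:**
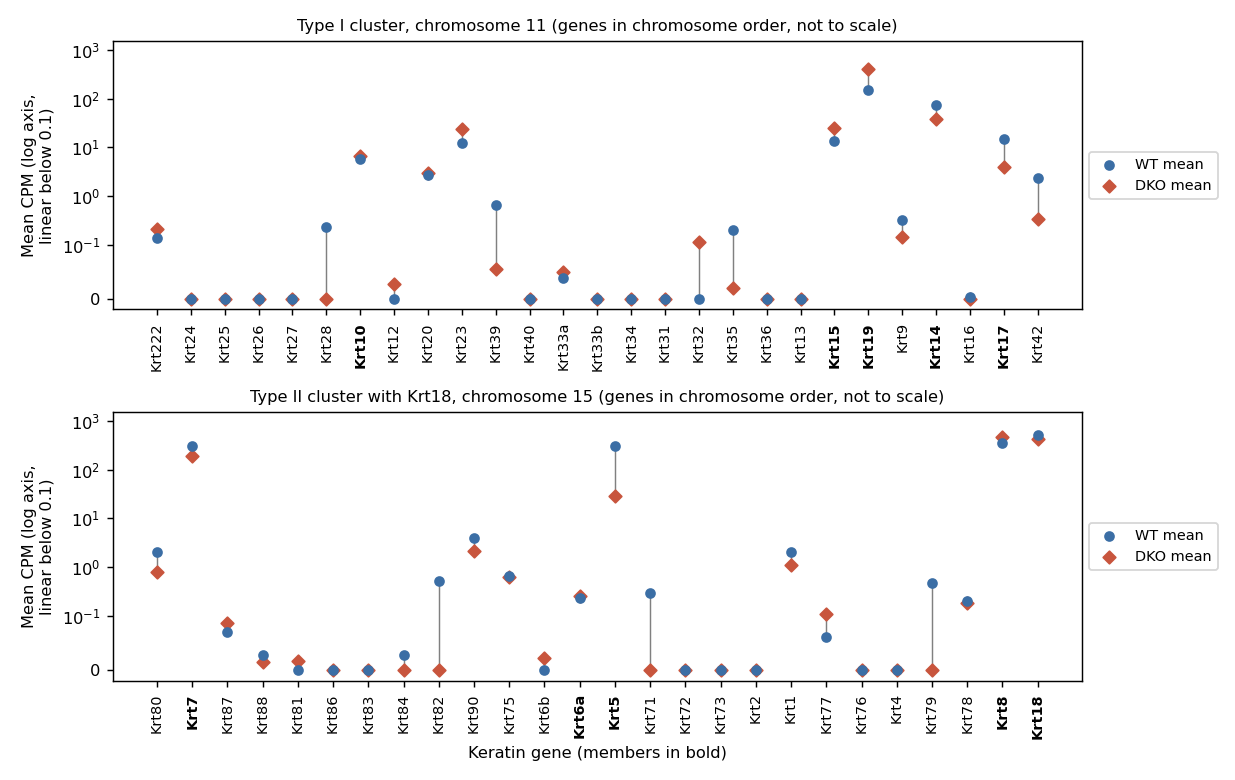
Mean CPM (log axis, linear below 0.1) of 53 keratin genes in WT (blue circles) and DKO (red diamonds), in chromosome order along the clusters of chromosomes 11 and 15, with the 10 members in bold. In these libraries 17 genes have 0 counts in both groups, and Krt15 and Krt19 have higher means in DKO next to Krt14 and Krt17 with higher means in WT. Krt15 and Krt14 were not called.

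Keratin filaments are held to junctions by linker proteins and share the cell with other intermediate filaments. Of 22 such genes, 20 were tested, 3 fell and 0 rose by edgeR (2.81% and 1.7% over all tested genes). At an unadjusted p under 0.05, 1 was higher, with 1 higher by DESeq2 and 0 by limma-voom. The median log2 fold change was -0.18, against 0.03 over all tested genes. Pkp1, the plakophilin of desmosomes that binds keratins, fell 33.6-fold (9.98 ± 2.08 to 0.297 ± 0.283 CPM, edgeR adjusted p = 0.000757). Its log2 fold change was -5.06, and -6.11 without DKO 17. Evpl, the plakin envoplakin of the cornified envelope, fell 3.28-fold (13.0 ± 1.96 to 3.96 ± 0.652 CPM, edgeR adjusted p = 0.00596). Vim, the mesenchymal filament protein, fell 2.35-fold (67.1 ± 12.7 to 28.6 ± 3.56 CPM, edgeR adjusted p = 0.00668). These 3 calls held with any 1 library left out. Without WT 53, 5 genes of the list were called lower. The most abundant per kilobase were the nuclear lamin gene Lmnb1 (56.9 CPM per kilobase in WT, 42.9 in DKO, edgeR adjusted p = 0.269) and the junction gene Jup (37.9 and 32.3, adjusted p = 0.538).

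Of 24 genes listed here as regulators of epithelial keratins, 23 were tested. By edgeR, 5 fell and 0 rose (2.81% and 1.7% over all tested genes). At an unadjusted p under 0.05, for which no share over all genes was computed, 0 were higher, as by DESeq2 and limma-voom. The list also holds splicing factor genes and a 14-3-3 protein, and whether the listed genes act on keratins was not tested. Their median log2 fold change was -0.62, against 0.03 over all tested genes. Values are given for 4 of the 5 that fell. The splicing factor gene Esrp2 fell 2.64-fold from 102 ± 36.3 CPM (edgeR adjusted p = 0.0478), and Cebpa, a factor of differentiating keratinocytes, fell 6.72-fold from 3.47 ± 0.695 CPM (edgeR adjusted p = 0.0203). The log2 fold change of Cebpa was -2.72, and -3.89 without DKO 41, and its call was lost without DKO 40, WT 32 or WT 56. Sfn, the 14-3-3 protein stratifin, fell 1.65-fold from 555 ± 80.5 CPM (edgeR adjusted p = 0.0196), and the NOTCH response gene Hes1 1.95-fold from 96.4 ± 5.79 CPM (edgeR adjusted p = 0.0181). The count of lower genes depended on single libraries: it was 10 without DKO 41, 2 without DKO 17, 1 without DKO 40 and 0 without WT 32 or WT 56.

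Outside the naming rule, and picked after their values were seen, are Trp63 and Grhl3. Trp63, the p63 factor that acts on Krt5 and Krt14 in basal cells, was at 295, 271 and 346 CPM in WT and at 176, 131 and 244 CPM in DKO 17, DKO 40 and DKO 41 (log2 fold change -0.72, SE 0.21, edgeR adjusted p = 0.0915). Grhl3, a periderm and barrier factor, was at 159, 93.0 and 158 CPM in WT and at 16.2, 13.6 and 66.3 CPM in DKO (edgeR adjusted p = 0.119). For both genes the groups did not overlap, as for 21.9% of all tested genes. DKO 41 was the highest DKO library for both, as it was for each member but Krt19 and Krt10. For Krt8 it was nearly level with DKO 40 (494 and 493 CPM). How many of all genes share this order was not counted, and a link of these factors to the keratins was not tested.

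Of 15 genes of late differentiation and the cornified envelope, 6 were tested. By edgeR, 1 fell and 0 rose (2.81% and 1.7% over all tested genes). At an unadjusted p under 0.05, 1 was higher, with 0 higher by DESeq2 or limma-voom. In log2 fold change these 6 had a median of -0.99, against 0.03 over all tested genes. Tgm1, the transglutaminase that crosslinks the envelope, fell 6.81-fold (27.9 ± 7.45 to 4.10 ± 1.96 CPM, edgeR adjusted p = 0.00288), with any 1 library left out too. The rest were near the floor. Sbsn, the next in level, was at 0.852 ± 0.658 and 0.559 ± 0.546 CPM, and 4 genes had 0 counts.

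Markers of other cell types were summed per library beside these results. The 8 ridge markers summed to 1798 to 2182 CPM in WT and 237 to 396 CPM in DKO. Of the 8, 6 were called lower (2.81% over all tested genes). The 12 periderm markers, 5 of which are members, summed to 1705 to 1985 CPM in WT and 1618 to 2069 CPM in DKO. The 7 that are not members were split off after seeing the data. They summed to 699 to 941 CPM in WT and 443 to 660 CPM in DKO, without overlap. Most of that sum was Sfn, at 470 to 631 CPM in WT and 312 to 376 CPM in DKO. Sfn, also on the regulator list, was the 1 of 5 tested that was called, lower (2.81% over all tested genes). Mesothelium also makes Krt8, Krt18, Krt19 and Krt7. Its 9 markers summed to 68.5 to 85.6 CPM in WT and 112 to 131 CPM in DKO. Of 7 tested, 4 were called higher and 1 lower (1.7% and 2.81% over all tested genes). Most of that sum was Podxl (52.0 ± 7.87 and 98.9 ± 6.80 CPM). Of the 4 called higher, Wt1 rose from 0.242 ± 0.111 to 2.12 ± 0.696 CPM (edgeR adjusted p = 0.0106). Lrrn4, also called higher, rose from 5.44 ± 2.04 to 14.4 ± 1.94 CPM (edgeR adjusted p = 0.0216). Upk1b, the 1 called lower, fell from 13.9 ± 2.75 to 3.31 ± 1.84 CPM (edgeR adjusted p = 0.0148). The call was lost without WT 32 or WT 56 for Wt1, without DKO 40, WT 32 or WT 56 for Lrrn4, without DKO 40 or WT 56 for Upk1b, and without DKO 40 or WT 32 for Podxl. Aldh1a2, without a count in WT, averaged 0.641 ± 0.224 CPM in DKO. With a floor of 3 counts over the WT group it was at least 50.9-fold higher, and its call was lost with any 1 of the 6 libraries left out. Muc16 had 0 counts, and Upk3b ranged from 1.91 to 3.95 CPM in WT and from 1.80 to 5.26 in DKO. Upk3b, Msln and Gata4 were not called.

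The 11 mesenchyme markers summed to 383 to 427 CPM in WT and 231 to 514 CPM in DKO. Of the 11, 1 was called lower and 0 higher (2.81% and 1.7% over all tested genes). It was Pdgfra (log2 fold change -3.13, edgeR adjusted p = 0.00696), called with any 1 library left out too. The 10 blood markers ranged from 0.591 to 302 CPM in WT and from 27.5 to 919 CPM in DKO, and DKO 41 was the highest. Of 8 endoderm and gut markers, Foxa2 had 0 counts, and the sum of 12.5 to 25.4 CPM in WT and 26.2 to 193 CPM in DKO was mostly Cdx1. Of 3 tested in that list, 1 was called higher and 0 lower (1.7% and 2.81% over all tested genes). It was Sox17, which rose from 0.196 ± 0.124 to 4.65 ± 3.10 CPM (edgeR adjusted p = 0.0123). The log2 fold changes of Sox17 ran from 3.96 to 5.02 with 1 library left out, and there was no call without WT 32 or WT 56. The 8 endothelial markers summed to 33.3 to 48.1 CPM in WT and 52.2 to 75.1 CPM in DKO, nearly all of it Egfl7, and Cdh5 had 0 counts. The 7 neural and neural crest markers summed to 111 to 155 CPM in WT and 40.3 to 51.3 CPM in DKO, mostly Tubb3 in WT, and Foxd3 had 0 counts. Of 5 tested, 2 were called lower and 0 higher (2.81% and 1.7% over all tested genes). They were Tubb3 (log2 fold change -5.33, edgeR adjusted p = 0.000182) and Sox2 (-4.09, edgeR adjusted p = 0.00931). The call of Sox2 was lost without DKO 40 or WT 56. The 6 macrophage markers stayed between 0.607 and 2.51 CPM, and Lyz2 had 0 counts. The part of any of these in the keratin differences was not tested.

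By the naming rule, the genes with the pattern most like each called keratin over the 6 libraries were Diaph3, Hmgn3 and Tnfaip1 for Krt19 (Pearson r of log2 CPM 0.997, 0.99 and 0.988). They were Psrc1, Decr1 and Eif4ebp2 for Krt8 (0.995, 0.994 and 0.994) and Sgk3, Bnc1 and Nectin4 for Krt17 (0.996, 0.996 and 0.995). These points share the libraries and the split into groups, and r passed 0.95 for 26, 121 and 220 of 10061 genes compared with Krt19, Krt8 and Krt17.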

How the data were processed

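Forelimb bud ectoderm was peeled after trypsin and sequenced with a SMART-Seq v4 and Nextera XT kit, per the labels' protocols, without molecular identifiers or strand. The deposited values are whole-number counts for each gene, not normalized. HISAT2, StringTie, Cufflinks, DESeq2, fastp and FastQC, and the builds GRCm38 and mm10, are named in the submitters' processing notes. Which of them produced the table, and in what version, is not given in the sources used. Columns were assigned to the E9.75 groups by name.

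Counts were tested with edgeR 4.0.16 in R 4.3.3 (filterByExpr, TMM, robust glmQLFit with legacy=FALSE, quasi-likelihood F test), adjusted over 19126 genes. On simulated data edgeR and limma-voom kept the share of false calls under the threshold and DESeq2 did not. The condition for passing this check covered false calls of edgeR and limma-voom only, and was dropped for DESeq2 after it failed. The simulation does not settle the weight of a call by DESeq2 alone. The simulation was 1 draw of counts, with the spread of each gene taken from edgeR's own fitted trend and no library standing apart. That setting favours edgeR, so it cannot show how often any of the tools is wrong on these libraries. Each SE was taken as the size of the log2 fold change over the root of its F value. P-values measure only the spread between these samples, which may be technical. Alternatives were DESeq2 1.42.0, limma 3.58.1 (voom), 3 other scalings, no filter, legacy=TRUE and fits without 1 or 2 libraries. A floor of 3 counts over a group stands for 0 and covers counting error only. Lengths and positions came from GENCODE M21 (GRCm38). For a repeated symbol the row with the highest mean count was used.

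The members and lists were chosen with earlier results of these data known. Named are the members, Sp8 and Sp6, other keratins at 1 CPM or called, called genes and the 2 most abundant of each list, and the 3 genes most like each called member by r among protein-coding genes at 5 CPM or more. Of the called regulators, 1 is not reported here.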

Additional observations from a re-analysis of the deposited data

How the results depend on the processing

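No paired analysis was possible because the labels do not say which embryos shared a litter. The numbers in the table's columns also match no replicate numbers of the labels. These counts do not say which genes were called. Of the 10 keratins, the count of 2 higher became 1 with no filter on low counts, 0 without both WT 32 and DKO 41, and 1 to 2 with 1 library left out. The count of 1 lower (Krt17) became 0 with no filter, 3 with DESeq2, 0 with legacy=TRUE, 2 with limma-voom, 2 without both (Krt5 and Krt7, not Krt17), and 0 to 3 with 1 library left out. Over all genes, 325 higher and 538 lower became 116 and 296 with no filter, 754 and 984 with DESeq2, 200 and 346 with legacy=TRUE, 205 higher with limma-voom, 95 and 282 without both, and 53 to 332 and 194 to 592 with 1 library left out. The count of 2 other keratins lower became 1 with DESeq2 size factors or upper-quartile scaling, 0 with library totals, no filter, legacy=TRUE, limma-voom or without both, 4 with DESeq2, and 0 to 1 with 1 library left out. Of the linker genes, DESeq2 called 1 higher and 5 lower, the fit without both called 1 lower, and fits with 1 library left out called 0 to 1 higher and 3 to 5 lower. Of the genes listed as keratin regulators, the count of 5 lower became 3 with library totals, 0 with no filter, 9 with DESeq2 and 2 with legacy=TRUE. It became 3 without both, and 0 to 10 with 1 library left out. The cause of these changes was not tested. The log2 fold change of Krt6a, 0.11 in the main test, was -1.65 with limma-voom and from -7.34 to 1.63 with 1 library left out, and was below 0 without WT 32 (-0.21), WT 53 (-0.34) or DKO 41 (-7.34, where DKO has 0 counts). The other 9 keratins kept their direction in all 14 settings. With longest transcript lengths in place of exon lengths, the WT mean of type I over type II was 1.30 in place of 1.37. That of Krt19 over Krt18 was 0.273 in place of 0.232, and Krt19 came before Krt8 in DKO. Krt7 then averaged 76.3 CPM per kilobase in WT in place of 44.3, and 47.0 in DKO in place of 27.3. With these lengths its WT libraries all lay above those of Krt14. With 3 libraries a group, an exact test of 1 ratio cannot give a p below 0.1.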
